A study of Saccharomyces cerevisiae with 4 samples.

Results

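The mRNA of a yeast hybrid was set against that of its laboratory parent. The hybrid was an a/alpha diploid of Saccharomyces cerevisiae from a cross of BY4741 with RM11-1alpha, and its level of a gene was the sum of the BY and the RM reads. The BY parent was BY4741, a haploid of mating type a, grown in the same flask as haploid RM11-1a, and its level was the BY reads of that co-culture. All 4442 gene pairs in which BY and RM reads had been told apart on SNP sites were compared, which is every gene pair of the series. Both groups had 2 libraries, called replicates 1 and 2, of cultures grown at 30 °C and 250 rpm, with an OD600 of 0.1 at the start and 1.0 at harvest. Technical replicate is the labels' word for them, so p-values measure the spread between such samples and may leave out the spread between separate cultures. The hybrid differs from BY in ploidy, in mating type and in holding an RM genome. BY also grew in co-culture with RM, and its reads come from other cultures and libraries than those of the hybrid. All these differences cannot be told apart here. BY4741 is a common laboratory strain with deletions in several amino acid and uracil genes, and RM11 descends from a vineyard isolate.

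The hybrid libraries held 2809121 and 4183129 allele-assigned reads, with medians of 213 and 324 per gene, and the BY columns 1333473 and 1556632, with medians of 111 and 131. BY reads made up 49.62% and 49.57% of the hybrid reads. After a filter on low counts, 4298 genes were tested, with a median SE of 0.13 on the log2 scale.

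Yeast mating type is set by 1 locus, and it decides which mating genes a cell uses. A haploid of type a makes a-factor, carries the receptor for alpha-factor and keeps the pheromone signalling genes on. In an a/alpha diploid the alpha2 protein, with Mcm1, represses the a-specific genes, and a heterodimer of a1 and alpha2 represses the genes that both haploid types share. BY also carries variants that are known to act on many genes from afar. Among them are a Ty1 insertion in HAP1, which encodes a heme-responsive activator, and an altered AMN1, a gene that acts on the separation of daughter cells.

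The operator to which alpha2 and Mcm1 bind is shown first because it stands before each a-specific gene that was measured. The letters searched were GTA, any 4 bases, CC, any 6 bases and GG, on both strands, in the 300 bases before the coding sequence in the R64 reference. The deposited files give gene names and no coordinates, so sequences and positions are those of R64, read by gene name on the strand of the gene. Capitals mark the match.
STE2: aaatttCCTAATTGGGTAAGTACatgatg
STE6: tgccatGTAATTACCTAATAGGGaaattt
BAR1: tggcatGTAATTACCGTAAAAGGaaatta
MFA1: gagtgtGTAATTACCCAAAAAGGaaattt
ASG7: tgaaacGTAATTACCGCATCGGGaaattt

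These stretches lie at chrVI:82356-82384 for STE2, chrXI:46482-46510 for STE6, chrIX:322075-322103 for BAR1, chrIV:1384939-1384967 for MFA1 and chrX:101910-101938 for ASG7. STE2, BAR1 and MFA1 are on the plus strand, and STE6 and ASG7 on the minus strand. The match before STE2 is on the strand opposite to the gene, and BAR1 holds an overlapping match on that strand as well. The letters were found before 5 of 5 a-specific genes and in 54 of 4325 such windows of all genes (1.25%). Outside the a-specific list, 48 tested genes held them, of which 8 (16.7%) were higher and 9 (18.8%) lower in the hybrid. Among all tested genes 22.9% were higher and 22.2% lower.

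Every measured a-specific gene was lower in the hybrid than in BY. Levels are in CPM, reads scaled to the column's own total with a TMM adjustment, and changes are log2 of hybrid over BY with their SE. The SE was taken as the size of the change over the square root of the F statistic of its test. Where a group has few reads, as for MFA1 and FUS3 in the hybrid, this SE is smaller than counting error and overstates the precision. A count of 0 allows up to 1.10 CPM in hybrid replicate 1 and 0.731 in replicate 2, and up to 2.22 and 1.86 CPM in BY replicates 1 and 2 (3 reads on the same scale). Such limits, and the intervals below, cover counting error only. STE2 (YFL026W), the receptor for alpha-factor, stood at 33.7 and 32.9 CPM in hybrid replicates 1 and 2, against 3276 and 3293 CPM in BY replicates 1 and 2. The groups lay far apart, with a log2 change of -6.62 ± 0.09 (edgeR quasi-likelihood test, Benjamini-Hochberg adjusted p = 5.35e-36). STE6 (YKL209C), which exports a-factor, had 52.8 and 51.9 CPM in the hybrid, against 1586 and 1561 in BY. Its change was -4.91 ± 0.08, and the hybrid reads came from both alleles, 42.3% of them from BY.

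MFA1 (YDR461W), an a-factor precursor gene, had 3 and 12 reads in the hybrid libraries, against 560 and 701 in the BY columns. That gave 1.10 and 2.92 CPM in the hybrid and 414.7 and 434.8 in BY, a log2 change of -7.57 ± 0.16. The protease gene BAR1 (YIL015W), which acts on alpha-factor outside the cell, had 7.70 and 8.28 CPM in the hybrid, against 579.1 and 558.9 in BY. ASG7 (YJL170C), a regulator of pheromone signalling, had 8.06 and 6.58 CPM in the hybrid and 36.3 and 21.1 in BY, the smallest change of the list at -1.96 ± 0.29. No a-specific gene had overlapping groups, and the hybrid libraries lay below both BY libraries in 36% of all tested genes. The median change over the 5 was -6.13. Over the 4298 genes tested the median change was -0.01, and 955 (22.2%) were called lower at an adjusted p under 0.05.

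**Figure D1:**
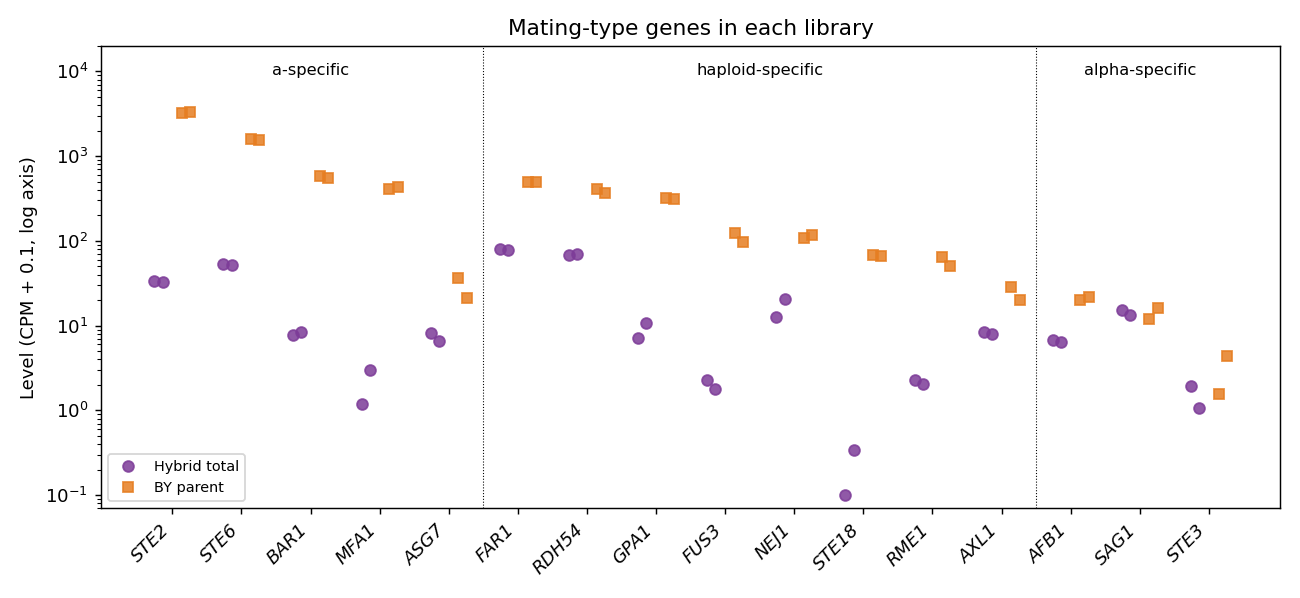
Level of each mating-type gene in each library, as CPM + 0.1 on a log axis, with hybrid totals as circles and the BY parent as squares. STE2 lies at 33.7 and 32.9 CPM in the hybrid and at 3276 and 3293 CPM in BY, while the circles and squares of SAG1 overlap.

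The genes that both haploid types use, for signalling and for other roles, were lower too, in 8 of 8 measured members. FUS3 (YBL016W), the mating kinase gene, had 2.20 and 1.70 CPM in the hybrid, against 125.1 and 97.4 in BY, a log2 change of -5.82 ± 0.26. GPA1 (YHR005C), the G-protein alpha subunit gene, had 6.96 and 10.7 CPM in the hybrid, against 324.3 and 308.3 in BY. STE18 (YJR086W), the gamma subunit gene, had 0 and 1 read in the hybrid and 93 and 106 reads in BY. At that depth the level was 459-fold higher in BY (95% counting interval 81.5 to 1.82e+04). RME1 (YGR044C), which represses meiosis in haploids, had 2.20 and 1.95 CPM in the hybrid, against 63.7 and 50.9 in BY.

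Other members of this list kept more of their level. FAR1 (YJL157C), which arrests the cell cycle before mating, stood at 79.2 and 78.7 CPM in the hybrid and 494.7 and 502.4 in BY, a change of -2.66 ± 0.08. RDH54 (YBR073W), a recombination gene, and NEJ1 (YLR265C), an end-joining gene, were lower as well. RDH54 changed by -2.50 ± 0.09, and NEJ1 had 12.46 and 20.7 CPM in the hybrid, against 108.9 and 116.6 in BY. AXL1 (YPR122W), which processes a-factor and directs budding, fell by 1.57 ± 0.28 (adjusted p = 2.2e-05). The list had a median of -3.73 and a range of -8.41 to -1.57, in which the fitted value of STE18 rests on its 1 hybrid read. A pattern of the a1 and alpha2 operator, TGT, any 7 bases and TACATCA on either strand, was found in the window of 1 of the 8 and in 1 of 4325 windows in all (0.02%). That window belongs to NEJ1, at chrXII:675583-675611 on the minus strand, with the match read on the opposite strand.
NEJ1: tatgatTGATGTATTTTTTTACAtggatt

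The alpha-specific genes, which a cell of type a keeps off, had low levels in both groups. AFB1 (YLR040C), which encodes a blocker of a-factor, had 6.60 and 6.33 CPM in the hybrid, against 20.0 and 21.7 in BY, and fell by 1.69 ± 0.30 (adjusted p = 1.47e-05). SAG1 (YJR004C), which encodes the agglutinin of alpha cells, had 15.03 and 13.4 CPM in the hybrid and 11.8 and 16.1 in BY, and its groups overlapped. Its log2 change was -0.01 ± 0.29. STE3 (YKL178C), the a-factor receptor gene, had 5 and 4 reads in the hybrid and 2 and 7 in BY, too few to be tested. Summed over the 5 a-specific genes, the level was 103.3 and 102.5 CPM in the hybrid, against 5892 and 5869 CPM in BY. These sums fit the labelled cell types, a/alpha for the hybrid and a for BY. In bulk RNA, fewer cells of a type and less RNA per cell cannot be told apart.

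Pheromone response genes, which are switched on downstream of the receptor, were lower in 8 of 13 cases and higher in 0, against 22.2% lower and 22.9% higher among all tested genes. SST2 (YLR452C), which ends the pheromone signal, had 108.1 and 124.2 CPM in the hybrid, against 825.7 and 858.5 in BY, a log2 change of -2.85 ± 0.08. AGA1 (YNR044W), the anchor subunit of a-agglutinin, had 100.05 and 94.3 CPM in the hybrid and 421.3 and 400.7 in BY. The membrane protein gene PRM5 (YIL117C), induced by pheromone, fell by 3.73 ± 0.20. KAR4 (YCL055W), a karyogamy regulator named here after its values were seen, had 0 reads in both hybrid libraries and 25 and 31 in BY, at least 43.1-fold lower (3 reads over the group). PRM1, PRM2, PRM3, CIK1 and FUS2, which act in cell or nuclear fusion, had changes between -0.04 and 0.22 and were not called. CIK1 and FUS2 lie on chromosome XIII. Off that chromosome 7 of 10 members were lower, with a median of -1.57, against -0.96 for all 13. The pheromone response element TGAAACA stood in the windows of 10 of the 13 genes, and in 7.14% of all windows. Of all 304 tested genes with the element, 18.1% were higher and 30.6% lower.

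Meiosis genes, which an a/alpha cell can switch on when starved, were not called higher in any of 12 tested members. Lower were 6 of them, against 22.2% of all tested genes. DESeq2 called 4 of them lower, and 546 of 4351 genes in all. IME1 (YJR094C), the inducer of meiosis, had 19.1 and 21.7 CPM in the hybrid, against 70.3 and 73.2 in BY, a log2 change of -1.80 ± 0.17. Its RM reads in the co-culture were 1 in each library, and 116 of its 141 hybrid reads were BY reads (82.3%, 95% Wilson interval 75.1 to 87.7). IME4 (YGL192W), an mRNA methyltransferase gene, had 86.1 and 77.2 CPM in the hybrid and 314.7 and 277.9 in BY. IME4 overlaps an antisense gene, and without a stated strand setting its reads and those of the antisense RNA cannot be told apart. DMC1 (YER179W), a meiotic recombinase gene, had 2.57 and 2.68 CPM in the hybrid, against 23.7 and 18.0 in BY.

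Some genes were read almost wholly from 1 allele of the hybrid. MET17 (YLR303W), a methionine synthesis gene deleted in BY4741, had 0 reads in both BY columns and 176 and 332 in the hybrid, of which 1 was a BY read. Its level was at least 73.4-fold higher in the hybrid (3 reads over the group), and its reads are uncertain because it overlaps another gene. LYS2 (YBR115C), a lysine synthesis gene, was read 2224 times from BY and 0 times from RM in the hybrid, which allows an RM share of up to 0.135%. It stood at 319.6 and 329.3 CPM in the hybrid, against 581.3 and 587.4 in BY, and fell by 0.85 ± 0.07. Haploid RM cells in the co-culture did express LYS2, at 570.2 and 573.6 CPM, so the RM copy lacked reads in the hybrid but not in RM11-1a.

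PTK1 (YKL198C), a kinase gene of polyamine transport, had 75.5 and 103.3 CPM in the hybrid, with 0 BY and 630 RM reads (a BY share of up to 0.476%). BY had 0 and 2 reads, so the hybrid stood 137-fold higher (95% counting interval 37.6 to 1130). CTR3 (YLR411W), a copper transporter gene, had 84.3 and 81.6 CPM in the hybrid, against 8.15 and 12.4 in BY, a log2 change of 2.98 ± 0.21. Only 3.54% of its hybrid reads were BY reads (95% Wilson interval 2.3 to 5.4). SLH1 (YGR271W), an RNA helicase gene, rose by 2.90 ± 0.33 with 8.0% BY reads in the hybrid (5.12 to 12.3). YER187W, a gene without a standard name, rose by 2.13 ± 0.31 with 16.8% BY reads (12.1 to 22.9).

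**Figure D2:**
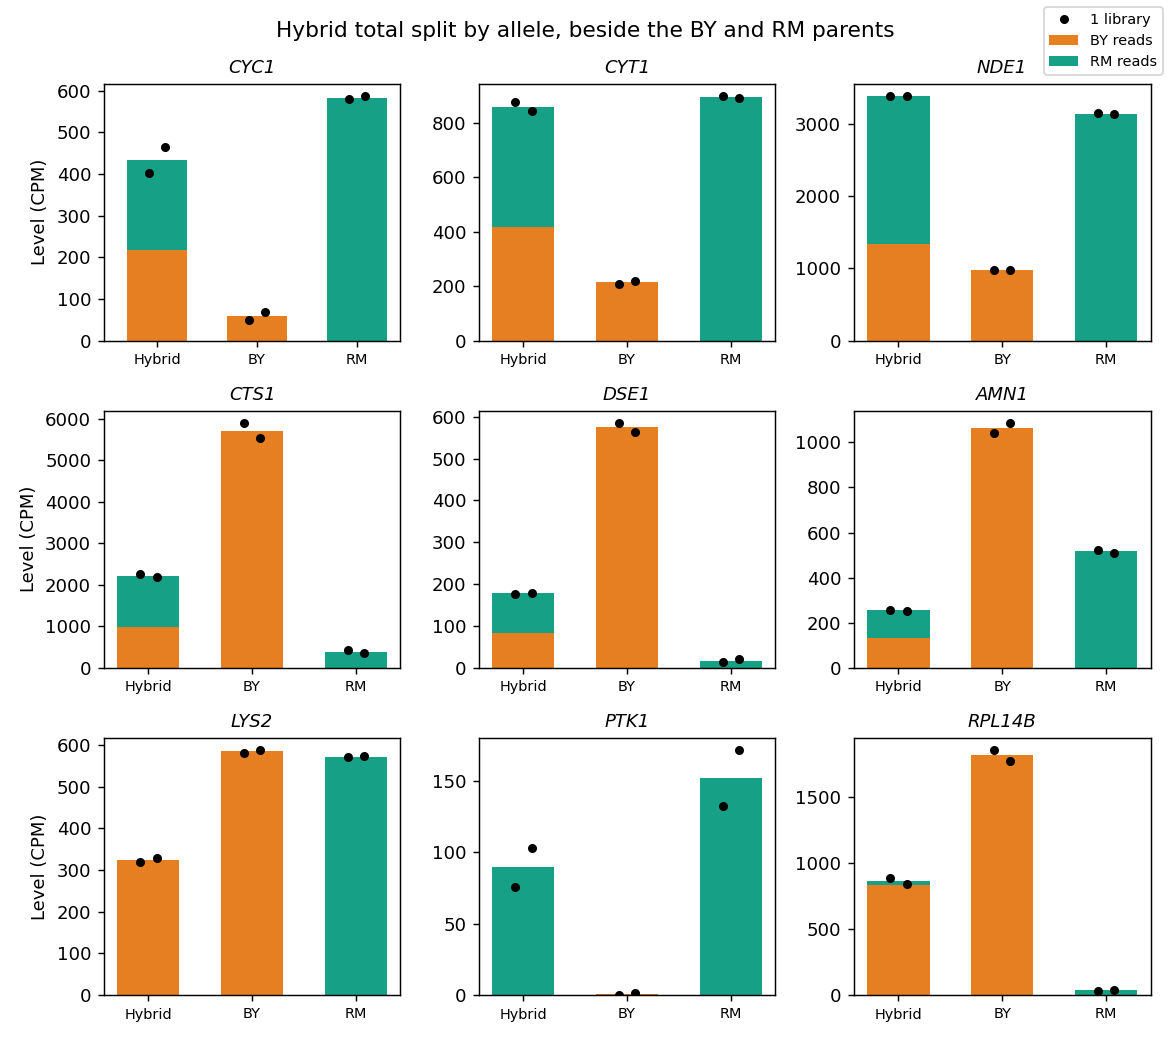
Level in CPM of 9 genes as bars from 0: the hybrid total stacked from its BY and RM reads, then the BY parent and the RM parent, with dots for single libraries. CYC1 and CYT1 hold similar BY and RM parts in the hybrid, while the hybrid bars of LYS2 and PTK1 consist of BY reads and of RM reads alone.

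Genes of respiration were higher in the hybrid than in BY. Of 30 oxidative phosphorylation genes tested 25 rose and 0 fell, while 985 of all 4298 genes (22.9%) rose. The median log2 change of the list was 0.80, and 10 members rose at least 2-fold, which 2.05% of all tested genes did. Summed over the list, the level was 15840 and 15845 CPM in the hybrid, against 7809 and 7856 in BY, and RM stood at 18092 and 18236. CYC1 (YJR048W), the main cytochrome c gene, had 401.3 and 464.9 CPM in the hybrid, against 49.6 and 68.2 in BY, a change of 2.87 ± 0.11 (adjusted p = 1.64e-21). BY reads made up 50.4% of its hybrid reads (95% Wilson interval 48.6 to 52.2). CYT1 (YOR065W), the cytochrome c1 gene, had 876.2 and 840.5 CPM in the hybrid and 207.3 and 219.6 in BY.

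RIP1 (YEL024W), the Rieske iron-sulfur protein gene, had 607.2 and 570.4 CPM in the hybrid, against 148.8 and 127.8 in BY, and rose by 2.09 ± 0.08. NDE1 (YMR145C), a mitochondrial NADH dehydrogenase gene on chromosome XIII, had 3390 and 3385 CPM in the hybrid and 973.0 and 983.8 in BY. With the genes of that chromosome set aside, 23 of 28 members rose. The Hap2/3/4/5 box CCAAT stood in 25 of 30 windows of the list, and in 42.4% of all windows. Of all 1787 tested genes with CCAAT 23.6% were higher, near the 22.9% of all genes. The list of HAP1, heme and oxygen genes moved both ways, with 4 of 13 higher and 6 lower, against 22.9% and 22.2% of all tested genes. A Hap1 site, searched as CGG, any 3 bases, TA, any base and CGG, stood in 0 of 30 windows of the respiration list, 0 of 13 of the HAP1, heme and oxygen list and 6 in all. HAP1 (YLR256W) itself had 401.7 and 409.9 CPM in the hybrid, against 616.1 and 604.2 in BY, and fell by 0.59 ± 0.07. HEM1 (YDR232W), the entry enzyme of heme synthesis, rose by 0.74 ± 0.06 and YHB1 (YGR234W), the flavohemoglobin gene, by 0.80 ± 0.06. OLE1 (YGL055W), the fatty acid desaturase gene, rose by 1.10 ± 0.07, and 73.2% of its hybrid reads were BY reads (95% Wilson interval 72.5 to 74.0). Lower members included ANB1 (YJR047C), a translation factor gene, at -1.62 ± 0.24, COX5B (YIL111W), a cytochrome oxidase subunit gene, at -1.09 ± 0.16 and HEM13 (YDR044W), of heme synthesis, at -0.89 ± 0.10.

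Membrane sterol synthesis rose in most members. Among 20 ergosterol genes, 13 were called higher and 2 lower, against 22.9% and 22.2% of all tested genes, and the list median was 0.55. The fits without a library called 1 lower. HMG1 (YML075C), an HMG-CoA reductase gene, had 1522 and 1424 CPM in the hybrid, against 452.4 and 398.9 in BY, and rose by 1.79 ± 0.07. ERG11 (YHR007C), the sterol demethylase gene, had 1336 and 1282 CPM in the hybrid and 654.6 and 593.0 in BY. ERG28 (YER044C), which tethers enzymes of the pathway, had 33.0 and 43.8 CPM in the hybrid, against 7.40 and 11.8 in BY. ERG5 (YMR015C), a sterol desaturase gene, rose by 1.34 ± 0.09. HMG1 and ERG5 lie on chromosome XIII, and among the 15 members elsewhere 8 rose and 2 fell. Of 18 iron uptake genes 7 rose and 2 fell, with 4 and 1 past a minimum log2 change of 0.32. That minimum was passed by 415 higher and 455 lower genes of all 4298 tested. HMX1 (YLR205C), the heme oxygenase gene, had 71.5 and 67.0 CPM in the hybrid, against 14.8 and 19.2 in BY, and FTR1 (YER145C), the iron permease gene, rose by 0.72 ± 0.06. FET4 (YMR319C), a low-affinity iron transporter gene, fell by 0.89 ± 0.07.

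Most genes that build ribosomes were higher. Among 78 ribosome biogenesis genes, 67 were called higher and 1, UTP22 (YGR090W), lower, against 22.9% higher among all tested genes. The list median was 0.50, and 39 were higher by more than the minimum log2 change of 0.32, as were 415 of all 4298 genes. BRX1 (YOL077C), an assembly factor gene, had 473.8 and 523.4 CPM in the hybrid, against 182.2 and 209.7 in BY, a change of 1.35 ± 0.08. Its hybrid reads were uneven, with 24.6% from BY (95% Wilson interval 23.2 to 26.1). DBP10 (YDL031W), an RNA helicase gene, had 243.7 and 225.5 CPM in the hybrid and 103.7 and 122.8 in BY. RRP5 (YMR229C), needed for rRNA processing and encoded on chromosome XIII, rose by 0.85 ± 0.07, and off that chromosome 62 of 73 members rose. Motifs known from these genes are PAC, searched as GATGAG, and RRPE, searched as AAAATTTT. Both are shown for BRX1 and DBP10, which changed most among the named members, with capitals on the match.
BRX1 PAC: tagatgCTCATCgcgatg
BRX1 RRPE: gactgaAAAATTTTagatgc
DBP10 PAC: tcaagcGATGAGatgaaa
DBP10 RRPE: gctcttAAAATTTTcaagcg

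For BRX1 these stretches are chrXV:186858-186875 and chrXV:186869-186888 on the minus strand, and for DBP10 chrIV:394076-394093 and chrIV:394063-394082 on the plus strand. PAC stood in 71 of the 78 windows and in 18.1% of all windows, and RRPE in 61 of 78 and in 9.76% of all. Over all tested genes, 203 held both motifs, and 140 of these (69.0%) were higher and 6 (3.0%) lower in the hybrid. The shares of all tested genes were 22.9% and 22.2%. Outside every gene list used here, 138 genes held both, of which 84 (60.9%) were higher and 5 lower. A match is a description of the window and shows no binding. Depth moved with these calls: among the 1075 genes with the most reads 491 were higher and 218 lower, and among the 1078 with the fewest 62 were higher and 211 lower. The part of depth in these counts was not tested.

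Mitochondrial and cytosolic ribosomal protein genes are described apart, since their counts differ. The mitochondrial ribosomal protein list was drawn mostly by name pattern, and MRP8 (YKL142W) is in it by name alone. Of its 47 genes 38 rose and 1, MRP8, fell, with a median of 0.53, while 22.9% of all tested genes rose. DESeq2 called 26 higher, and 644 of 4351 genes in all. Past the minimum log2 change of 0.32, 21 were higher, as were 415 of all 4298 genes. PET123 (YOR158W), of the small mitochondrial subunit, had 216.2 and 206.8 CPM in the hybrid, against 112.6 and 98.01 in BY, and rose by 1.01 ± 0.10. MRPL4 (YLR439W), of the large subunit, rose by 0.93 ± 0.12 and MRPS9 (YBR146W) by 0.68 ± 0.08. Of 25 genes of the cytosolic small subunit 13 rose and 0 fell, against 22.9% and 22.2% of all tested genes. The list median was 0.32, and 6 passed the minimum log2 change. DESeq2 called 9 of 26 higher, and scaling by column totals 9 of 25. Over all genes these settings called 644 of 4351 and 810 of 4298 higher. RPS28B (YLR264W) had 3645 and 3563 CPM in the hybrid, against 2521 and 2612 in BY. RPS11B (YBR048W) rose by 1.24 ± 0.13, with 29.2% BY reads in the hybrid. Many of these genes have near-identical copies, which makes the assignment of their reads uncertain.

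The cytosolic large subunit had no common direction, with 14 of 45 genes higher, 5 lower and a median of 0.06 that changed sign, to -0.0044, when columns were scaled by their totals only. All tested genes were higher in 22.9% and lower in 22.2% of cases. DESeq2 called 9 of the 45 higher and 4 lower, and 644 higher and 546 lower of 4351 genes in all. The median was 0.17 without hybrid replicate 1 and 0.08 without hybrid replicate 2. It was 0.07 without co-culture replicate 1 and 0.21 without co-culture replicate 2. The name pattern of this list also took in RPP1, an RNase P subunit gene, without which 13 of 44 were higher. RPL14B (YHL001W) had 884.7 and 840.8 CPM in the hybrid, against 1852 and 1772 in BY, and fell by 1.07 ± 0.06. In the hybrid 96.6% of its reads were BY reads (95% Wilson interval 96.1 to 97.1), and RM haploids had 31.7 and 35.8 CPM. RPP0 (YLR340W), the stalk protein gene, rose by 0.55 ± 0.07 and RPL9B (YNL067W) by 0.60 ± 0.07.

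**Figure D3:**
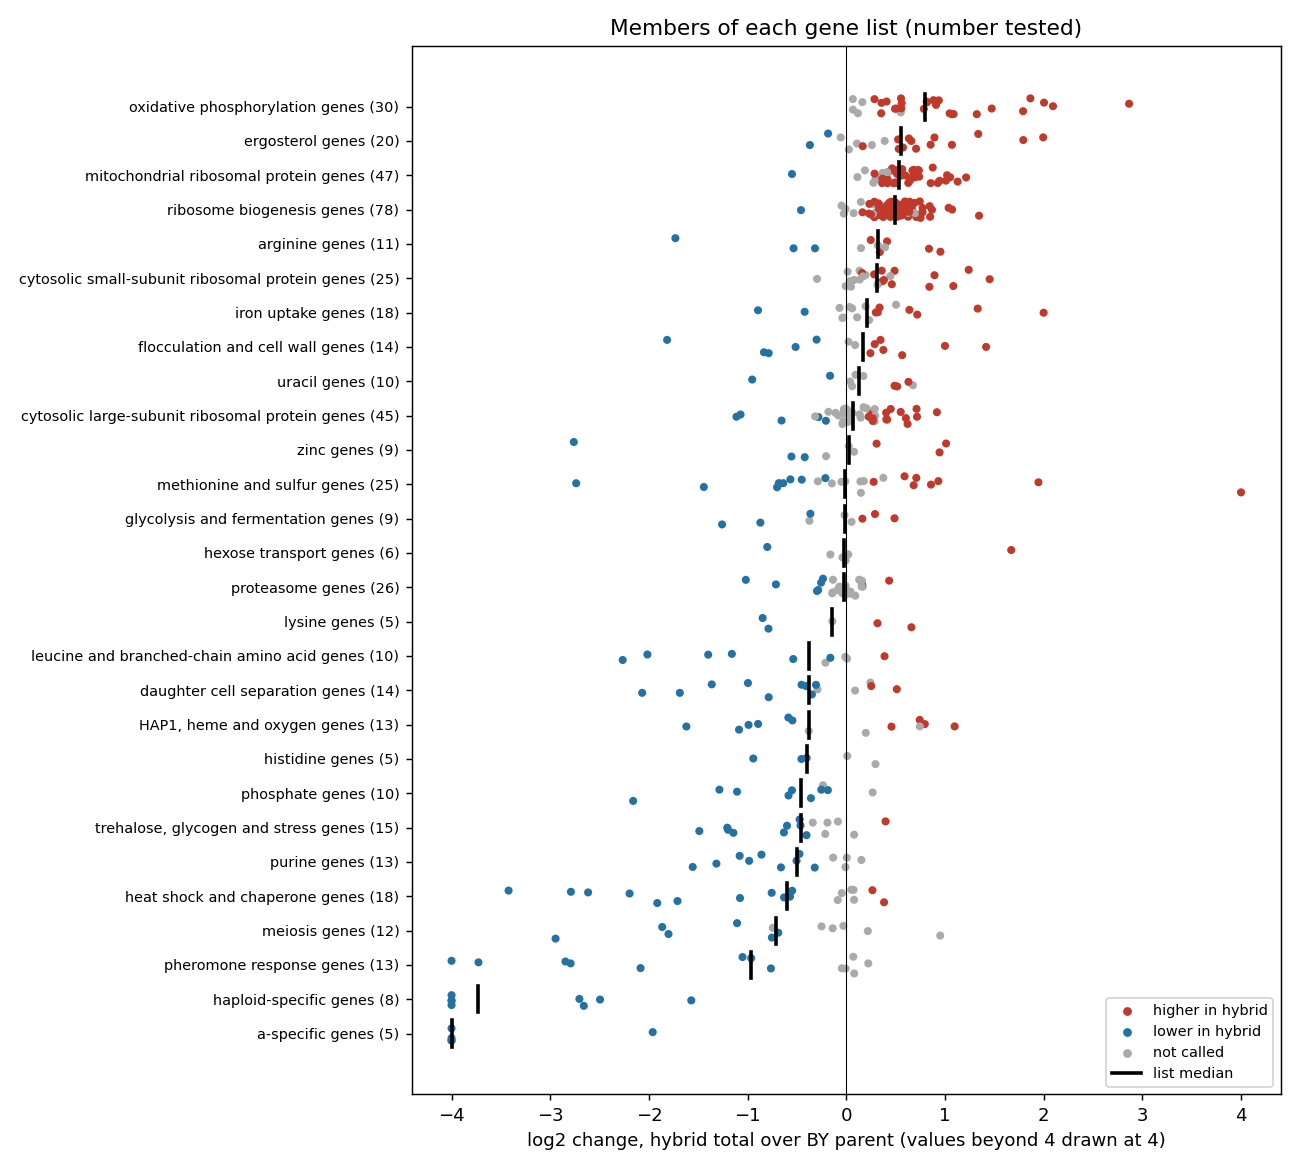
Log2 change of hybrid over BY for the tested members of each gene list with at least 5 of them, coloured by call, with a black bar at the list median and values beyond 4 drawn at 4. Lists are ordered by median, from the oxidative phosphorylation genes at 0.80 down to the a-specific genes at -6.13.

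Of 14 genes that act when a daughter cell leaves its mother, 9 were lower in the hybrid than in BY and 2 higher, against 22.2% and 22.9% of all tested genes. At a minimum log2 change of 0.32, 5 were lower, as were 455 of all 4298 tested genes. CTS1 (YLR286C), the endochitinase gene, had 2266 and 2177 CPM in the hybrid, against 5900 and 5529 in BY, a log2 change of -1.36 ± 0.06. RM stood lower still, at 418.7 and 361.6 CPM, and the hybrid reads of CTS1 were 44.4% BY. DSE1 (YER124C), a daughter cell wall gene, had 177.4 and 179.3 CPM in the hybrid and 585.0 and 564.5 in BY, against 13.9 and 20.2 in RM. AMN1 (YBR158W) had 256.9 and 251.6 CPM in the hybrid, against 1044 and 1086 in BY, and its change of -2.07 ± 0.07 was the largest fall of the list. For AMN1 the hybrid lay below RM as well, which had 523.8 and 509.2 CPM. PRY3 (YJL078C), a gene of the cell wall, rose by 0.51 ± 0.07.

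Many heat shock and storage carbohydrate genes were lower in the hybrid. Among 18 heat shock and chaperone genes, 11 were called lower and 2 higher, against 22.2% and 22.9% of all tested genes. The list median was -0.60, and 7 members fell at least 2-fold, which 4.54% of all tested genes did. HSP30 (YCR021C), a membrane heat shock gene, had 8.80 and 6.58 CPM in the hybrid, against 81.5 and 80.02 in BY, and fell by 3.42 ± 0.21. HSP26 (YBR072W), a small chaperone gene, had 12.8 and 16.6 CPM in the hybrid and 85.9 and 98.01 in BY. HSP104 (YLL026W), the disaggregase gene, had 273.0 and 282.3 CPM in the hybrid, against 570.9 and 601.1 in BY. The members that rose were HSP60 (YLR259C) and SSC1 (YJR045C), both chaperones of the mitochondrial matrix, and neither passed the minimum log2 change of 0.32. Of 15 trehalose, glycogen and stress genes 9 fell and 1 rose. DESeq2 called 6 of them lower, and 546 of 4351 genes in all. GSY2 (YLR258W), a glycogen synthase gene, fell by 1.14 ± 0.09 and TPS1 (YBR126C), of trehalose synthesis, by 0.60 ± 0.07, while MSN2 (YMR037C), a stress activator gene on chromosome XIII, rose by 0.40 ± 0.13. Its call was lost with DESeq2 (adjusted p = 0.138), at the minimum log2 change and without co-culture replicate 2 (0.28, edgeR adjusted p = 0.207).

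Most genes of leucine and purine synthesis were lower as well. Among 10 leucine and branched-chain genes, 6 were called lower and 1, ILV6 (YCL009C), higher, against 22.2% and 22.9% of all tested genes, and the list median was -0.37. LEU1 (YGL009C), an isomerase of leucine synthesis, had 415.6 and 400.9 CPM in the hybrid, against 1976 and 1947 in BY, a change of -2.27 ± 0.06. OAC1 (YKL120W), a mitochondrial carrier gene, fell by 2.02 ± 0.07 and BAT1 (YHR208W), a transaminase gene, by 1.40 ± 0.06. RM levels were near those of BY, at 1670 and 1640 CPM for LEU1 and 1750 and 1507 CPM for BAT1, so the hybrid lay below both parents in these genes. The Leu3 site was searched as CCGG, any 2 bases and CCGG. It is shown because it stands before LEU1 and BAT1, though in only 2 of the 10 windows of the list (20.0%) and not before OAC1. In all it stood in 8 of 4325 windows (0.18%).
LEU1: aaaattCCGGGACCGGcgaaat
BAT1: tgtttgCCGGTACCGGccttta

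These lie at chrVII:478854-478875 on the minus strand for LEU1 and chrVIII:517379-517400 on the plus strand for BAT1. All 8 genes with this site were tested, and 6 were lower and 2 higher in the hybrid. The 6 include LEU1 and BAT1, which were picked for display. Among 13 purine genes, 9 were called lower and 0 higher, against 22.2% and 22.9% of all tested genes, and the list median was -0.50. ADE17 (YMR120C), an enzyme of the last steps, had 147.0 and 148.8 CPM in the hybrid, against 454.7 and 417.5 in BY, and fell by 1.56 ± 0.08. It lies on chromosome XIII. ADE1 (YAR015W), of the same pathway, had 186.9 and 176.1 CPM in the hybrid and 458.4 and 443.5 in BY, and ADE13 (YLR359W) fell by 0.86 ± 0.07. Bas1 sites, searched as TGACTC, stood in 12 of 14 windows of the list and in 8.28% of all. Of all 347 tested genes with the letters 23.6% were higher and 25.1% lower.

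Most phosphate genes were lower in the hybrid. Among 10 of them, 8 were called lower and 0 higher, against 22.2% and 22.9% of all tested genes, and the list median was -0.45. DESeq2 called 6 lower, and 546 of 4351 genes in all. Past the minimum log2 change of 0.32, 4 were lower, as were 455 of all 4298 genes. VTC3 (YPL019C), of polyphosphate synthesis, had 1074 and 1013 CPM in the hybrid, against 2250 and 2241 in BY, and RM had 652.8 and 580.8. The phosphate uptake regulator SPL2 (YHR136C) had 16.5 and 17.3 CPM in the hybrid and 76.3 and 75.7 in BY, and PHO8 (YDR481C), the vacuolar alkaline phosphatase gene, fell by 1.29 ± 0.10. The proteasome list did not stand out, with 6 of 26 genes (23.1%) lower and 2 higher and a median of -0.02, near the 22.2% lower among all tested genes. RPN4 (YDL020C), the transcription factor of proteasome genes, had 191.7 and 178.8 CPM in the hybrid, against 387.3 and 361.6 in BY, with 89.8% BY reads in the hybrid (95% Wilson interval 88.0 to 91.4). PRE7 (YBL041W), a core subunit gene, fell by 0.71 ± 0.07 and RPN3 (YER021W), of the lid, by 0.28 ± 0.06, while 18 members were not called. The Rpn4 site GGTGGCAAA stood in 20 of the 26 windows and in 1.27% of all. Of all 55 tested genes with the site, 20.0% were higher and 25.5% lower.

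The 2 largest falls outside any list were of NDJ1 and CMK2. NDJ1 (YOL104C), a meiotic telomere protein gene, had 5.86 and 8.04 CPM in the hybrid, against 191.8 and 209.7 in BY, a change of -4.80 ± 0.16. RM had 4.64 and 7.15 CPM, so the hybrid total stood beside the low parent, and 38 of 49 hybrid reads were BY reads (77.6%, 95% Wilson interval 64.1 to 87.0). CMK2 (YOL016C), a calmodulin-dependent kinase gene, had 13.2 and 15.6 CPM in the hybrid and 188.1 and 232.0 in BY. RM had 47.9 and 60.5 CPM for CMK2, above the hybrid.

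In all, 1940 of 4298 genes tested (45.1%) differed between the hybrid total and BY, 985 of them higher and 955 lower in the hybrid. Most changes were small, with a median size of 0.48 on the log2 scale among the higher and 0.58 among the lower genes. At least 2-fold were 283 genes (6.58%), 88 higher and 195 lower. The 2 hybrid libraries lay on the same side of both BY libraries in 3050 genes (71%), above them in 34.9% of all tested genes, so a lack of overlap is common here and is not by itself a call. DESeq2 called fewer genes, 644 higher and 546 lower, and all 1190 were also among the 1940. Scaled by column totals alone, 810 were higher and 1152 lower.

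**Figure D4:**
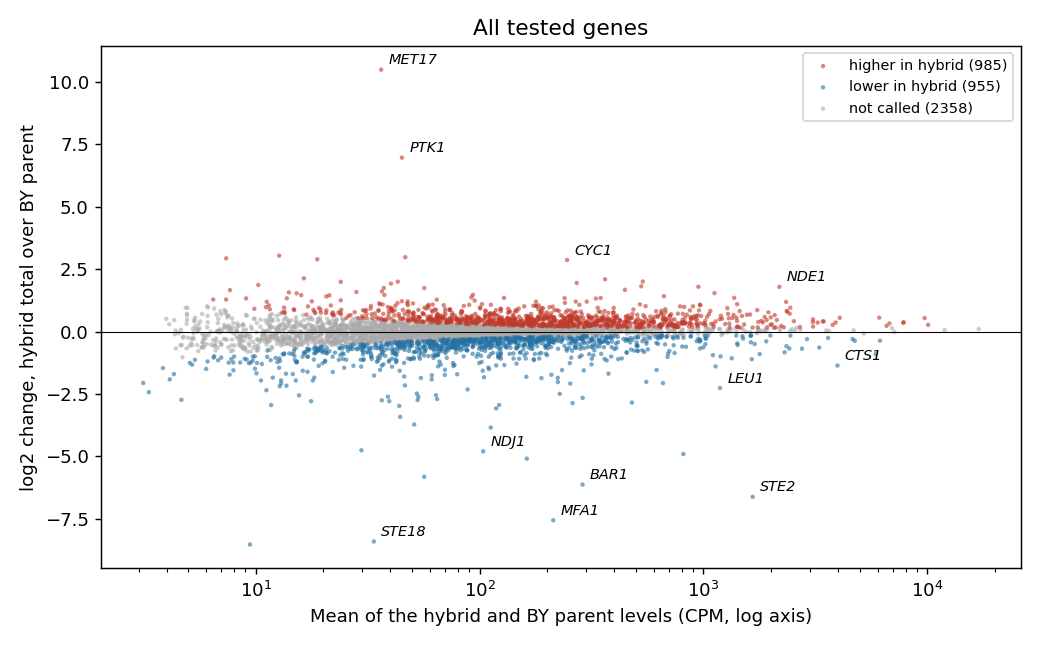
Log2 change of hybrid over BY against the mean level in CPM on a log axis, for each of the 4298 tested genes, coloured by call. The a-specific genes STE2, MFA1 and BAR1 lie far below the cloud. The fitted values of MET17, PTK1 and STE18 rest, like that of KAR4, on 0 to 2 reads in 1 group.

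Chromosome XIII stood apart from the other 15 chromosomes. Of its 332 tested genes 156 (47.0%) were higher and 28 (8.43%) lower in the hybrid, with a median log2 change of 0.27. On the other chromosomes the medians lay between -0.06 and 0.02. The summed level of its tested genes was 102978 and 100824 CPM in the hybrid, against 78484 and 75310 in BY, and 89243 and 86308 in RM. BY reads made up 40.9% of the hybrid reads of this chromosome, and between 47.9% and 52.7% on each of the others. Among the 3966 tested genes not placed on it, 829 were higher and 927 lower, and 86 of the 3966 had no chromosome assigned here. A fit that left chromosome XIII out called 909 higher and 837 lower.

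**Figure D5:**
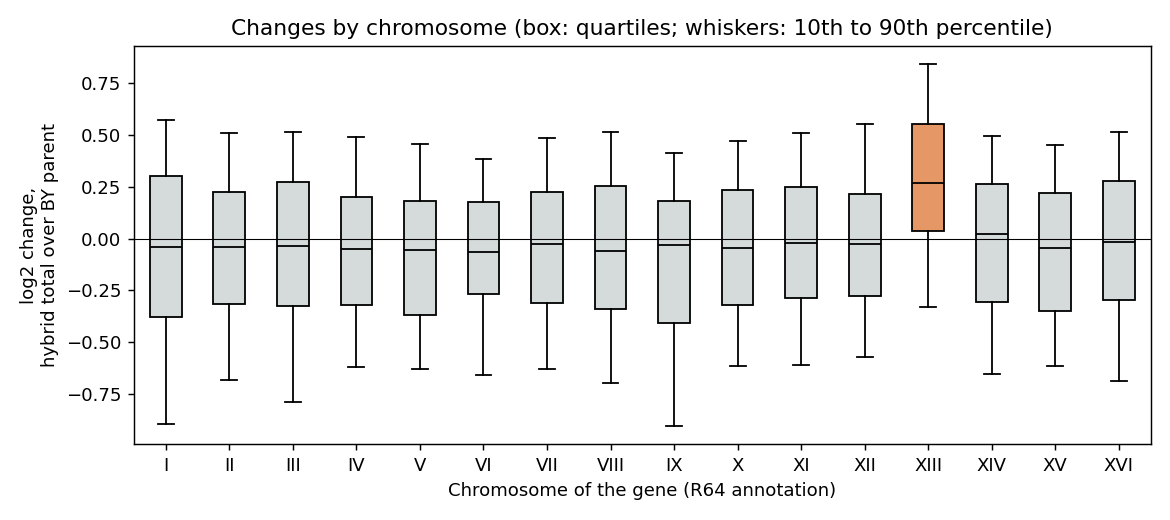
Log2 change of hybrid over BY for tested genes by chromosome, with boxes for the quartiles, a line at the median and whiskers from the 10th to the 90th percentile. The box of chromosome XIII, with a median of 0.27, lies above the others, whose medians are near 0.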

How the data were processed

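RNA-seq read counts per gene and allele were compared. The authors deposited raw counts of reads assigned to the BY or the RM copy of each gene, with 1 file per library. The submitters' processing notes name CASAVA 1.8.2 and Bowtie, without their settings. Which genome build, SNPs and strand setting were used is not stated in those notes. The hybrid total was the sum of both columns, and the BY parent was the BY column of the co-culture, which was grown in 1 flask with RM. Replicate libraries differed by more than counting noise and were counted separately.

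Counts were tested with edgeR 4.0.16 in R 4.3.3, by the quasi-likelihood test after filterByExpr with a minimum of 10 reads and TMM scaling, with p-values adjusted over all tested genes by Benjamini-Hochberg and a threshold of 0.05. The residual degrees of freedom were 2. Scripts were tested on simulated data. The genes named were the 10 with the largest rise and the 10 with the largest fall among called genes with at least 50 reads on average and no overlap between groups, up to 3 tested members of each of 30 gene lists by smallest p, and every member of the mating-type and strain marker lists. ANB1, CIK1, COX5B, FUS2, HAP1, HEM13, HSP60, ILV6, KAR4, MRP8, MSN2, PRM1, PRM2, PRM3, PRY3, RPP1, SSC1 and UTP22 fall outside this rule and were chosen after their values were seen. Other measured list members, some taken by this rule among them, enter the counts of their lists and are not described singly. The members and lists were chosen with earlier results of these data known. Of 4442 gene names 4325 matched RefSeq R64, which gave the sequences. In all, 13 alternatives were run, DESeq2 1.42.0 among them. Intervals are Wilson or exact Poisson at 95%.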

Additional observations from a re-analysis of the deposited data

How the results depend on the processing

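The count of 1940 called genes (985 higher, 955 lower) moved by more than 1.5 times under 2 alternatives. DESeq2 called 1190, with 644 higher and 546 lower. A test against a minimum log2 change of 0.32 called 870, with 415 higher and 455 lower, and the cause of the DESeq2 difference was not tested. With the replicate number as a block 2272 were called, 1152 higher and 1120 lower, but same-numbered libraries share only a number (correlation of deviations 0.159 with 2 pairs). Leaving out each library in turn gave 1560 to 1749 called, 825 to 913 higher and 735 to 836 lower. Scaling by column totals moved the median of all genes to -0.08 and the share of higher calls to 41.3%, against 50.8%. Of 119 genes named by the rule or in the text, 0 reversed in the settings in which they were tested. Without chromosome XIII 14 of them had no value, and at a mean of 50 reads 10. The minimum log2 change ended 12 calls, ILV6, RPN3, UTP22, MRP8, SSC1, HSP60 and MSN2 among them, and DESeq2 ended 2. With 2 libraries a group, called technical replicates, p-values cover that spread only, and calls are fewer among genes with few reads.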

Other observations

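Other nutrient lists had members on both sides. Of 25 methionine and sulfur genes 8 rose and 9 fell, against 22.9% and 22.2% of all tested genes, which holds for each list here. MMP1 (YLL061W), an S-methylmethionine permease gene, had 410.8 and 451.3 CPM in the hybrid, against 111.1 and 112.9 in BY, and rose by 1.95 ± 0.09. Of 11 arginine genes 5 rose and 3 fell. ARG4 (YHR018C), the argininosuccinate lyase gene, had 92.4 and 100.8 CPM in the hybrid, against 305.8 and 338.1 in BY, and fell by 1.73 ± 0.09, with 86.5% BY reads in the hybrid. Of 9 zinc genes 3 rose and 3 fell. The zinc transporter gene ZRT1 (YGL255W) had 540.9 and 505.9 CPM in the hybrid and 269.5 and 272.9 in BY, and IZH4 (YOL101C) fell by 2.76.

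Of 14 flocculation and cell wall genes 7 rose and 5 fell. For this list and those below, the shares of all tested genes were 22.9% higher and 22.2% lower. CWP1 (YKL096W), a cell wall mannoprotein gene, had 995.7 and 942.1 CPM in the hybrid, against 371.7 and 354.2 in BY, and 26.2% of its hybrid reads were BY reads. TIR1 (YER011W) and CIS3 (YJL158C), of the same list, fell by 1.82 ± 0.11 and 0.83 ± 0.06. Of 6 hexose transport genes 1 rose, HXT2 (YMR011W) on chromosome XIII, with 686.4 and 670.8 CPM in the hybrid and 222.1 and 204.7 in BY, and 1 fell, HXT8 (YJL214W), at -0.80 ± 0.20, a call that was lost without co-culture replicate 2. Glycolysis and fermentation genes had 3 of 9 higher and 3 lower, lysine genes 2 of 5 higher and 2 lower, uracil genes 3 of 10 higher and 2 lower, and histidine genes 0 of 5 higher and 3 lower.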
